A study of Homo sapiens with 4 samples.

Results

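Keratins, vimentin and lamins build the intermediate filaments of a human cell, and 9 genes of this system were followed in EA.hy926 cells transfected with miR-187 or with a control miRNA (miR-NC). The set held the simple epithelial keratins KRT7, KRT8, KRT18 and KRT19, the mesenchymal filament protein vimentin (VIM), the nuclear lamins LMNA, LMNB1 and LMNB2, and the cytolinker plectin (PLEC). The members were chosen by name, as the epithelial and mesenchymal filament genes of a line that is itself a hybrid, and all 9 were found among the 62443 gene identifiers of the expression table. Of these 9 genes, 7 reached at least 1 FPKM in at least 2 libraries, as did 8196 genes in all. FPKM is the number of fragments of a transcript scaled by its length and by the mapped fragments of the library, so levels can be set side by side between genes.

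EA.hy926 is an established human line that arose from the fusion of endothelial cells of the umbilical vein with A549, a lung carcinoma line. The samples were 2 libraries of cells given miR-187 and 2 libraries of cells given miR-NC, both groups in the same line. Synthetic miRNAs were delivered by lipid transfection in the study's methods, and their dose here is not stated. The line is a hybrid grown in culture and stands in for endothelium only as such, and nothing in the sources says that the replicates came from separate cultures, so each p-value reflects only how far these 4 libraries spread, possibly for technical reasons.

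Intermediate filaments are rope-like polymers that carry mechanical load. Keratins are obligate heteropolymers, in which a type II chain such as KRT7 or KRT8 pairs with a type I chain such as KRT18 or KRT19. Vimentin forms filaments on its own and is the usual filament protein of endothelial cells and fibroblasts, whereas simple keratins are typical of glandular and simple epithelia and are found in A549 cells. Lamins line the inner face of the nuclear membrane, where A-type lamins come from LMNA and B-type lamins from LMNB1 and LMNB2. Plectin ties keratin and vimentin filaments to actin, to hemidesmosomes and to the nuclear surface.

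A miRNA pairs with mRNAs mainly through its seed, bases 2 to 8, which is shown in capitals in the mimic sequences listed by the study. These are printed because the search of the filament transcripts below rests on the seed. That the listed mimics are those used for these libraries is not stated.
miR-187 mimic: uCGUGUCUuguguugcagccgg
miR-NC mimic: uUGUACUAcacaaaaguacug

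The miR-187 mimic was 22 nt long and identical to the mature hsa-miR-187-3p of RefSeq, and the miR-NC mimic was 21 nt long. The motifs that pair with the miR-187 seed are GACACG (6mer), AGACACG (7mer-m8), GACACGA (7mer-A1) and AGACACGA (8mer), each holding the 6mer, and only the transcript strand was searched. No 6mer or longer match was found in the representative 3' UTR of any of the 9 filament genes, whose 3' UTRs ranged in length from 59 nt in KRT18 and 131 nt in KRT8 through 321 nt in VIM to 2745 nt in LMNB2. Of 7087 tested genes with a representative 3' UTR, 450 (6.35%) held the 6mer, 212 (2.99%) a 7-mer and 31 (0.437%) the 8mer. The absence of these letters from the windows searched says nothing more about pairing.

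Matches within the coding sequence were present in KRT8, LMNB1 and PLEC. Both windows below are 30 bases of GENCODE 29 transcripts on GRCh38 in the sense of the mRNA, with the match in capitals, and are shown because the representative transcripts of the other keratin, vimentin and lamin genes held none.
KRT8 coding window: gaagaagatcgAGACACGtgatgggaagct
LMNB1 coding window: gcgcgctcgacGACACGgcccgcgagcgcg

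The KRT8 match was a 7mer-m8 at chr12:52897474-52897480 on the minus strand, in 4 of the 9 coding transcripts annotated for KRT8. The LMNB1 match was a 6mer at chr5:126777791-126777796 on the plus strand. As the values below show, KRT8 was higher in both miR-187 libraries than in both miR-NC libraries, as were 5.93% of all tested genes. Its log2 fold change of 0.08 did not pass the test (adjusted p 0.451, limma). LMNB1 lay under the expression filter. Whether these matches have any effect was not tested.

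The summed FPKM was 763221 and 748075 with miR-187 and 736702 and 739377 with miR-NC, and fragment totals were not used here, so the depth is unknown. Genes at or over 1 FPKM numbered 7290 and 7189 with miR-187 and 8098 and 8868 with miR-NC. The 100 most abundant genes held 69.8% and 70.2% of the FPKM sum with miR-187 and 64.2% and 61.7% with miR-NC. In the comparison of miR-187 with miR-NC on FPKM as deposited, the median log2 fold change of all tested genes was -0.39, and 85.22% of them lay below 0. The direction of single genes therefore has to be read against this shift. Each fold change below is a difference of log2(FPKM + 1), tested with limma and Benjamini-Hochberg adjustment over the 8196 tested genes. That of each named gene is also given after median-of-ratios scaling, which brought the median of all tested genes to -0.01. Low genes appear less changed on this scale than they are in FPKM.

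The identity of the cells was read from marker lists. Of 10 endothelial markers 9 were matched in the table, with summed levels of 166.9 and 174.1 FPKM in miR-187 libraries and 260.8 and 341.3 FPKM in miR-NC libraries. The sums came mostly from EGFL7, at 98.1 and 106.9 FPKM with miR-187 and 135.5 and 187.9 FPKM with miR-NC, and from ESAM. CDH5, the endothelial cadherin, was present, but the defining markers VWF and KDR reached at most 0.0770 and 0.145 FPKM in any library and CLDN5 was listed at 0 in all 4. The epithelial markers outside the filament set were nearly silent: 12 markers summed to 0.0947 and 0.557 FPKM in miR-187 libraries and to 0.295 and 0.336 FPKM in miR-NC libraries, and CDH1, which encodes E-cadherin, was listed at 0 in all 4. Of 10 mesenchymal markers, FN1 and CDH2 passed the expression filter, and COL1A2, PDGFRA, LUM and DCN were listed at 0 throughout. The 7 lung epithelial markers summed to at most 0.688 FPKM in any library. The keratin and vimentin values thus stood beside RNA of some endothelial markers, with CDH1 listed at 0.

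The filament genes spanned a wide range of levels, shown in the plot of the members by library. By mean FPKM among the 8196 tested genes, KRT18 had rank 36, KRT8 rank 93, KRT7 rank 150 and VIM rank 191, while LMNA had rank 923, LMNB2 rank 2470 and PLEC rank 5118. KRT19 and LMNB1 were under 1 FPKM in every library. Over the 4 libraries the ranges of neighbours in this order did not overlap, with the exception of KRT7 and VIM, although KRT7 exceeded VIM within each library. LMNB1 and KRT19, the lowest pair, lay close together, from 0.293 FPKM up for LMNB1 and up to 0.251 FPKM for KRT19.

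**Figure D1:**
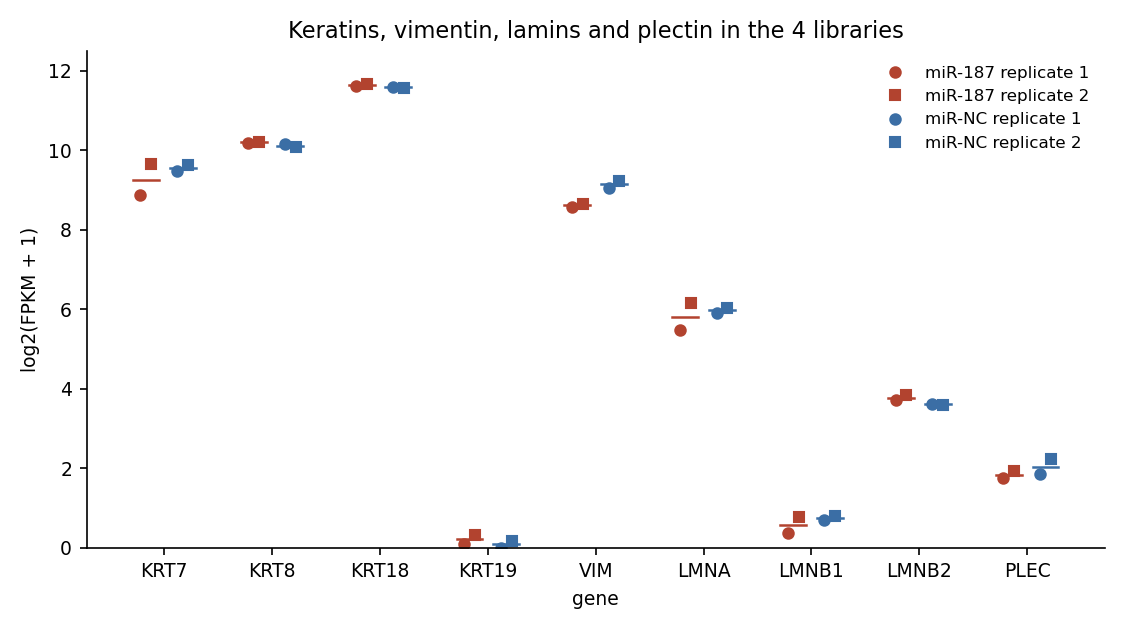
Level of each filament gene as log2(FPKM + 1) in the 2 miR-187 libraries (red) and the 2 miR-NC libraries (blue), with circles for replicate 1, squares for replicate 2 and a bar at the mean of each group on this scale. VIM is the gene whose miR-187 points (381.3 and 402.6 FPKM) both lie clearly under its miR-NC points (527.2 and 600.1 FPKM), and KRT7, LMNA and LMNB1 show a low miR-187 replicate 1.

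Vimentin was the filament gene that passed the test. VIM had 381.3 and 402.6 FPKM in the miR-187 libraries and 527.2 and 600.1 FPKM in the miR-NC libraries, or 391.9 ± 15.1 and 563.6 ± 51.5 FPKM (SD, n = 2 each). Both miR-187 libraries lay below both miR-NC libraries. The log2 fold change was -0.52 ± 0.10 (SE), with a 95% interval of -0.74 to -0.30 and an adjusted p of 0.00334 by limma, and the ratio of mean FPKM was 0.695. VIM fell on the deposited scale, and how far it fell depended on the scaling. With TPM scaling the log2 fold change was -0.55 (adjusted p 0.0027, limma), where all tested genes had a median of -0.44. After quantile and cyclic loess normalization it was -0.37 in both (adjusted p 0.0619 and 0.0512, limma), where that median was near 0. After median-of-ratios scaling VIM stood at -0.03 ± 0.12 (SE) on the log2 scale, with an adjusted p of 0.890 by limma. On the deposited scale VIM differed from the median fold change of all tested genes by -0.13, and 34.82% of tested genes had a lower fold change than VIM. Of the 6 tested endothelial markers 3 (CDH5, ESAM and EGFL7) also fell on the deposited scale and 2 (CDH5 and ESAM) after median-of-ratios scaling. Among all tested genes 27.3% and 3.7% were lower under these scalings. The part of the marker changes in the VIM value was not tested. In RNA from whole cultures, fewer cells with vimentin and less vimentin RNA per cell cannot be told apart.

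VIM (ENSG00000026025) lies at chr10:17228259-17237593 on the plus strand of GRCh38, and its antisense gene VIM-AS1 overlaps it. Of the 2036 stretches of 100 bases in the VIM transcript, 29.3% also occur in transcripts of other genes, of which 542 are shared with VIM-AS1. Here and below, a stretch was counted if it or its reverse complement was found. Whether fragments were counted by strand is not stated, so part of the VIM signal cannot be assigned with certainty. VIM-AS1 was listed at 0.139 and 0.0578 FPKM in miR-187 libraries and at 0.758 and 0.979 FPKM in miR-NC libraries, far under VIM and under the expression filter. The tested genes nearest to VIM, by Euclidean distance of centred log2(FPKM + 1) over the 4 libraries, were LSS (0.0177), MTREX (0.0229) and HMGN3 (0.0289), and 176 of 8151 genes with a symbol were closer than 0.1, so this profile was shared by many genes.

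KRT18 and KRT8, the classic keratin pair of simple epithelia, were the most abundant filament transcripts and moved little. KRT18, the type I partner, had 3132 and 3220 FPKM in miR-187 libraries and 3095 and 3039 FPKM in miR-NC libraries. Its log2 fold change was 0.05 ± 0.07 (SE), with a 95% interval of -0.11 to 0.21 and an adjusted p of 0.612 by limma. KRT8, the type II partner, had 1165 and 1175 FPKM in miR-187 libraries and 1135 and 1075 FPKM in miR-NC libraries. Its log2 fold change was 0.08 ± 0.08 (SE), with a 95% interval of -0.10 to 0.26 and an adjusted p of 0.451 by limma. For both genes the miR-187 libraries were the higher pair and the groups did not overlap on the deposited scale. The sign was not stable for KRT18, at -0.08 after quantile normalization and -0.01 after cyclic loess normalization. Neither passed the test under median-of-ratios scaling, where the log2 fold change was 0.54 for KRT18 (adjusted p 0.158, limma) and 0.57 for KRT8 (adjusted p 0.0915, limma).

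KRT8 (ENSG00000170421, chr12:52897187-52949954, minus strand) and KRT18 (ENSG00000111057, chr12:52948871-52952901, plus strand) are neighbours whose annotated transcripts overlap in opposite directions. Of the 100-base stretches of KRT18, 16.6% occur in either orientation in KRT8 transcripts. Of those of KRT8, 7.56% occur in either orientation in transcripts of 4 KRT8 pseudogenes. Keratin pseudogenes were read as a further check of shared fragments. The 137 keratin pseudogenes in the table, of which 51 are copies of KRT8 and 67 of KRT18, summed to 43.0 and 41.1 FPKM in miR-187 libraries and to 42.7 and 41.6 FPKM in miR-NC libraries. Those of KRT8 amounted to 3.24% and 3.17% of KRT8 itself with miR-187 and to 3.35% and 3.33% with miR-NC. The pseudogenes with the highest means, KRT8P14 and KRT8P12, overlapped between groups, and KRT8P14 had 17.8 and 16.5 FPKM with miR-187 and 18.6 and 17.1 FPKM with miR-NC. Values of the copies that share stretches with KRT8 are uncertain. No 100-base stretch of the representative KRT18 transcript was found in a KRT18 pseudogene.

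KRT7, a type II keratin of simple and ductal epithelia, was less repeatable. It had 468.1 and 796.8 FPKM in miR-187 libraries and 709.2 and 785.7 FPKM in miR-NC libraries. The miR-187 replicates differed 1.70-fold and the miR-NC replicates 1.11-fold, and the groups overlapped, with miR-187 replicate 1 the low library. The log2 fold change was -0.29 ± 0.18 (SE), with a 95% interval of -0.67 to 0.09 and an adjusted p of 0.217 by limma, and median-of-ratios scaling gave 0.20 (adjusted p 0.656, limma). Without miR-187 replicate 2 the log2 fold change was -0.67, and without miR-187 replicate 1 it was 0.09, so a single library set its direction. KRT7 (ENSG00000135480) lies at chr12:52232520-52252186 on the plus strand, and 7.67% of its 100-base stretches also occur in either orientation in its antisense gene KRT7-AS.

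KRT19, the smallest keratin and a type I partner in simple epithelia, was close to 0 while its relatives were abundant. It was listed at 0.0776 and 0.251 FPKM in miR-187 libraries and at 0 and 0.131 FPKM in miR-NC libraries. The groups overlapped, and no test was made above the expression filter. KRT19 (ENSG00000171345) lies at chr17:41523617-41528308 on the minus strand and shares no 100-base stretch with other genes' transcripts.

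The balance between filament types was also read as ratios within a library, which do not depend on how libraries are scaled to each other. VIM over the summed keratins KRT7, KRT8, KRT18 and KRT19 was 0.080 and 0.0775 in miR-187 libraries and 0.107 and 0.122 in miR-NC libraries. Both miR-187 ratios were lower, by -0.54 on the log2 scale or a fold of 0.689, with a pooled SD of 0.10 between replicates on the log2 scale. The exact two-sided permutation test gave p = 0.333, the smallest that 2 libraries against 2 allow, so no ratio here could reach 0.05. The keratins themselves summed to 4765 and 5192 FPKM with miR-187 and to 4940 and 4900 FPKM with miR-NC, which overlapped. As shares of the FPKM sum, keratins took 0.624% and 0.694% with miR-187 and 0.670% and 0.663% with miR-NC, while VIM took 0.04996% and 0.0538% with miR-187 and 0.0716% and 0.0812% with miR-NC. The keratin shares overlapped between groups and the VIM shares did not. On the deposited scale all tested genes had a median log2 fold change of -0.39, and 65.4% were lower in both miR-187 libraries. A fall against these keratins is therefore not shown to be particular to VIM.

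Within the keratins the proportions overlapped between groups. KRT8 over KRT18 was 0.372 and 0.365 in miR-187 libraries and 0.367 and 0.354 in miR-NC libraries, which overlapped (log2 difference 0.03, exact permutation p = 0.667). Type II keratins (KRT7 + KRT8) over type I keratins (KRT18 + KRT19) were 0.521 and 0.612 in miR-187 libraries and 0.596 and 0.612 in miR-NC libraries, which also overlapped (log2 difference -0.10, exact permutation p = 0.667). KRT18 alone made up 65.7% and 62.0% of the 4 keratins with miR-187 and 62.7% and 62.0% with miR-NC. In every library the FPKM of the type I chains exceeded that of the type II chains.

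**Figure D2:**
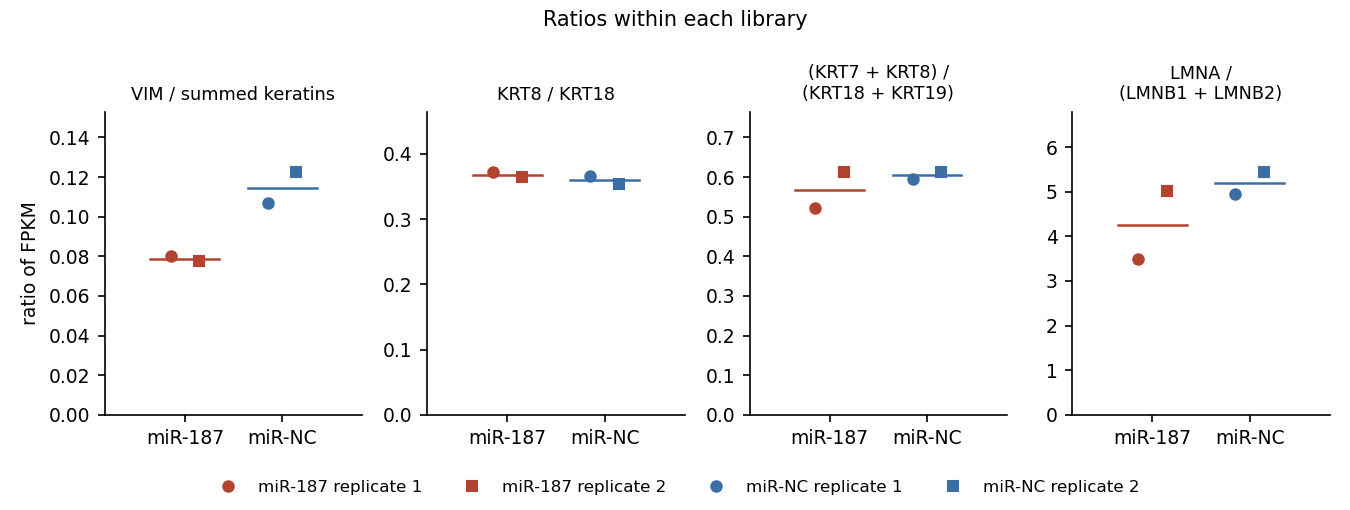
Ratios of FPKM within each library for miR-187 (red, left) and miR-NC (blue, right), with circles for replicate 1, squares for replicate 2, a bar at the group mean and axes that start at 0. VIM over summed keratins was 0.080 and 0.0775 with miR-187 against 0.107 and 0.122 with miR-NC, and the other 3 ratios overlapped between groups.

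Among the lamins, LMNA was the most abundant and its miR-187 replicates differed. LMNA, which encodes lamins A and C, had 43.4 and 69.9 FPKM in miR-187 libraries and 59.2 and 64.4 FPKM in miR-NC libraries. The miR-187 libraries enclosed both miR-NC values and differed 1.61-fold, with replicate 1 the low one. On the log2 scale the fold change was -0.16 ± 0.19 (SE), with a 95% interval of -0.57 to 0.24 and an adjusted p of 0.515 by limma, and median-of-ratios scaling gave 0.32 (adjusted p 0.396, limma). LMNA (ENSG00000160789) lies at chr1:156082573-156140089 on the plus strand.

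LMNB2, a B-type lamin that keeps its farnesyl anchor to the nuclear membrane, had 12.2 and 13.2 FPKM in miR-187 libraries and 11.4 and 11.1 FPKM in miR-NC libraries. The miR-187 libraries were the higher pair, with no overlap. It had a log2 fold change of 0.16 ± 0.19 (SE), with a 95% interval of -0.24 to 0.57 and an adjusted p of 0.506 by limma, and median-of-ratios scaling gave 0.61 ± 0.14 (SE) (adjusted p 0.0523, limma). It was the member nearest to the threshold in the upward direction, with adjusted p of 0.0641 after quantile normalization and 0.0577 after cyclic loess normalization (limma). LMNB2 (ENSG00000176619) lies at chr19:2427638-2456996 on the minus strand.

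LMNB1, the other B-type lamin, was low in every library. It had 0.293 and 0.719 FPKM in miR-187 libraries and 0.614 and 0.745 FPKM in miR-NC libraries. The groups overlapped, miR-187 replicate 1 was the low library at a 2.45-fold difference from its replicate, and the gene was under the expression filter. LMNB1 (ENSG00000113368) lies at chr5:126776623-126837020 on the plus strand. LMNA over the B-type lamins was 3.48 and 5.01 in miR-187 libraries and 4.94 and 5.44 in miR-NC libraries, which overlapped (log2 difference -0.31, exact permutation p = 0.667), and its log2 difference was -0.05 when miR-187 replicate 1 was left out and -0.57 when replicate 2 was. LMNB1 over LMNB2 was 0.0240 and 0.0543 with miR-187 and 0.0540 and 0.0671 with miR-NC, which overlapped as well (log2 difference -0.74, exact permutation p = 0.667). That difference was -0.15 when miR-187 replicate 1 was left out, -1.33 when replicate 2 was, and -0.33 with 1 FPKM added to each side, so its size rested on a single library and on values of LMNB1 near 0. LMNA made up 77.7% and 83.4% of lamin FPKM with miR-187 and 83.2% and 84.5% with miR-NC.

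Plectin, the linker between these networks, was expressed at a low level. PLEC had 2.35 and 2.83 FPKM in miR-187 libraries and 2.62 and 3.69 FPKM in miR-NC libraries, and the groups overlapped. The log2 fold change was -0.20 ± 0.25 (SE), with a 95% interval of -0.74 to 0.34 and an adjusted p of 0.539 by limma, and median-of-ratios scaling gave 0.16 (adjusted p 0.584, limma). PLEC over VIM was 0.00617 and 0.00702 in miR-187 libraries and 0.00498 and 0.00614 in miR-NC libraries, so that the groups nearly touched (log2 difference 0.25, exact permutation p = 0.333, the smallest possible). PLEC (ENSG00000178209) lies at chr8:143915147-143976734 on the minus strand, and the coding sequence of its representative transcript held 5 copies of the seed 6mer.

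Counted as a set, 1 of the 7 tested filament genes was lower with miR-187 (VIM) and 0 were higher on the deposited scale. Among all 8196 tested genes 27.3% were lower and 1.49% were higher by the same test, so 1 of 7 is not more than the background. At an unadjusted p under 0.05 the count of higher members was also 0 by limma, with or without an intensity trend. After median-of-ratios scaling 0 of the 7 were lower and 0 were higher by limma, against 3.7% lower and 4.67% higher among all tested genes, and at an unadjusted p under 0.05 the counts were 0 lower and 3 higher (KRT8, KRT18 and LMNB2), against 13.6% lower and 15% higher among all tested genes. The median log2 fold change of the 7 was -0.16, against -0.39 for all tested genes, and 0.32 after median-of-ratios scaling, against -0.01. KRT8, KRT18 and LMNB2 were higher in both miR-187 libraries than in both miR-NC libraries, as were 5.93% of all tested genes, and VIM was lower in both, as were 65.4%. The adjusted p-values that missed 0.05 do not show that these genes were unaffected. The intervals printed with each reflect the spread of these 4 libraries on the deposited scale and do not bound the effect of miR-187.

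**Figure D3:**
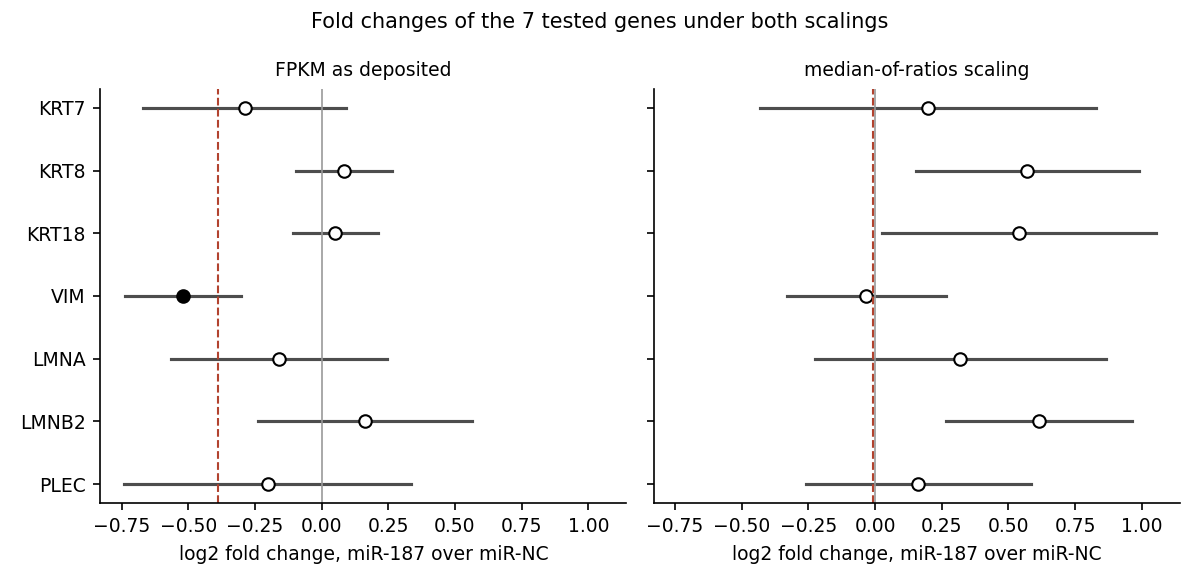
Log2 fold change (miR-187 over miR-NC, log2(FPKM + 1) scale) of the 7 tested filament genes with limma's 95% interval, on FPKM as deposited (left) and after median-of-ratios scaling (right), where the filled point passed an adjusted p of 0.05 and the dashed line is the median of all tested genes (-0.39 and -0.01). VIM lies at -0.52 on the left and -0.03 on the right, close to the dashed line in both panels, while KRT8, KRT18 and LMNB2 lie to its right.

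Other keratins were sparse, and few could be tested. Of 51 other keratin genes 40 were listed at 0 in all 4 libraries and 3 were tested, of which 2 fell under both scalings. Among all tested genes 27.3% were lower as deposited and 3.7% after median-of-ratios scaling, and 3 genes are too few for a trend. KRT80, a type II keratin of differentiating epithelia, had 1.71 and 1.91 FPKM in miR-187 libraries and 5.95 and 8.004 FPKM in miR-NC libraries (log2 fold change -1.49, adjusted p 0.00139 by limma, and -1.12 with adjusted p 0.0180 after median-of-ratios scaling). KRT15, a type I keratin of basal epithelial cells, had 3.88 and 5.41 FPKM with miR-187 and 12.0 and 13.2 FPKM with miR-NC (log2 fold change -1.28, adjusted p 0.00183 by limma, and -0.85 with adjusted p 0.0428 after median-of-ratios scaling). The groups did not overlap for either gene. KRT10, a type I keratin of differentiated epidermis, was the tested keratin that did not pass. Of 12 other cytoplasmic filament genes, among them DES, GFAP and NES, 6 were listed at 0 throughout and 1, the lens protein gene BFSP1, was tested and not called.

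Of 17 partners of the lamins at the nuclear envelope 12 were tested, of which 5 fell and 0 rose on the deposited scale, where 27.3% of all tested genes were lower, with a median log2 fold change of -0.34 against -0.39 for all tested genes. After median-of-ratios scaling 2 fell, TMEM43 and SUN1, against 3.7% of all tested genes. TMEM43, an inner nuclear membrane protein, had 6.0 and 5.33 FPKM in miR-187 libraries and 15.6 and 17.9 FPKM in miR-NC libraries, with a log2 fold change of -1.41 (adjusted p 0.000649, limma) and of -0.97 after median-of-ratios scaling (adjusted p 0.0146, limma). SUN1, which joins lamins to the cytoskeleton through the nuclear membrane, had 2.09 and 1.57 FPKM with miR-187 and 5.05 and 5.99 FPKM with miR-NC. Its log2 fold change was -1.21 (adjusted p 0.00434, limma), and -0.84 after median-of-ratios scaling (adjusted p 0.0384, limma). BANF1, the small chromatin protein that recruits lamins during nuclear assembly, was abundant at 493.8 and 466.4 FPKM with miR-187 and 595.9 and 643.0 FPKM with miR-NC, with a log2 fold change of -0.37 (adjusted p 0.0137, limma) and of 0.12 after median-of-ratios scaling (adjusted p 0.574, limma). NARF, which binds prenylated prelamin A, and TMPO, which encodes the lamina-associated polypeptide 2 proteins, were the other 2 that fell on the deposited scale, and TMPO was named after its values were seen.

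The tails of prelamin A and of B-type lamins are farnesylated, trimmed and methylated. Of the 5 genes of this processing, all tested, RCE1 fell on the deposited scale and 0 fell after median-of-ratios scaling. Among all tested genes 27.3% and 3.7% were lower under these scalings, so 1 of 5 is not more than the background. The median log2 fold change of the 5 was -0.54, against -0.39 for all tested genes, and -0.11 after median-of-ratios scaling, against -0.01. RCE1, the protease that removes the last residues after prenylation, had 1.98 and 2.53 FPKM in miR-187 libraries and 5.03 and 7.68 FPKM in miR-NC libraries. Its log2 fold change was -1.16 (adjusted p 0.00718, limma), and -0.77 after median-of-ratios scaling (adjusted p 0.0568, limma). The other protease ZMPSTE24 had a log2 fold change of -0.56 (adjusted p 0.0783, limma). The farnesyltransferase subunits FNTB and FNTA had -0.54 (adjusted p 0.0780, limma) and -0.22 (adjusted p 0.449, limma). With median-of-ratios scaling ZMPSTE24, FNTB and FNTA stood at -0.15, -0.11 and 0.19 (adjusted p 0.535, 0.651 and 0.465, limma). These 3 did not pass. ICMT, the methyltransferase of the last step, had 1.59 and 2.54 FPKM with miR-187 and 1.24 and 1.37 FPKM with miR-NC, which did not overlap, and did not pass either (log2 fold change 0.40, adjusted p 0.216 by limma, and 0.70 with adjusted p 0.0943 after median-of-ratios scaling).

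Linkers and regulators of cytoplasmic filaments were read in the same way. Of 17 plakins and desmosome linkers 8 were listed at 0 in all libraries, DSP among them, and 4 were tested, with 2 lower on the deposited scale and 0 after median-of-ratios scaling, against 27.3% and 3.7% of all tested genes. DST, a plakin related to plectin, had 2.71 and 3.51 FPKM in miR-187 libraries and 7.72 and 6.78 FPKM in miR-NC libraries. Its log2 fold change was -1.01 (adjusted p 0.00879, limma), and -0.61 after median-of-ratios scaling (adjusted p 0.108, limma). JUP, which encodes plakoglobin, was the other gene lower on the deposited scale and was named after its values were seen. JUP had 0.731 and 0.448 FPKM with miR-187 and 1.44 and 1.87 FPKM with miR-NC, so it entered the test through the miR-NC libraries alone and its call is not counted as support. Of 27 kinases, phosphatases, chaperones and 14-3-3 proteins that act on filaments, 19 were tested, of which 7 fell and 0 rose on the deposited scale and 2, PRKCE and HSPB8, fell after median-of-ratios scaling, against 27.3% and 3.7% lower among all tested genes. Of the 7, BAG3 and PAK1 reached 1 FPKM in the miR-NC libraries alone, which leaves 5. PRKCA, which was not called, also entered the test in this way. So did 634 of all 8196 tested genes and 312 of the 2236 called lower. The 27.3% includes these genes and is not a like share for the 5. PRKCE, a kinase that phosphorylates vimentin and keratins, had 3.55 and 3.81 FPKM with miR-187 and 8.43 and 11.5 FPKM with miR-NC. Its log2 fold change was -1.22 (adjusted p 0.00314, limma), and -0.80 after median-of-ratios scaling (adjusted p 0.0306, limma). HSPB8, a small heat shock protein, had 3.61 and 2.93 FPKM with miR-187 and 6.93 and 9.53 FPKM with miR-NC. Its log2 fold change was -1.10 (adjusted p 0.00649, limma), and -0.69 after median-of-ratios scaling (adjusted p 0.0486, limma). CDK1, which phosphorylates lamins and vimentin in mitosis, and the phosphatase subunit PPP2CA fell on the deposited scale at log2 fold changes of -0.997 and -1.03. With median-of-ratios scaling they stood at -0.55 and -0.61 and did not pass (adjusted p 0.0678 and 0.0658, limma). Of 16 regulators of the epithelial-mesenchymal transition 8 were listed at 0 throughout, ZEB1 and ZEB2 were tested, and neither was called. ZEB1, a repressor of epithelial genes, had 2.88 and 5.40 FPKM with miR-187, enclosing the 3.91 and 4.37 FPKM with miR-NC.

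**Figure D4:**
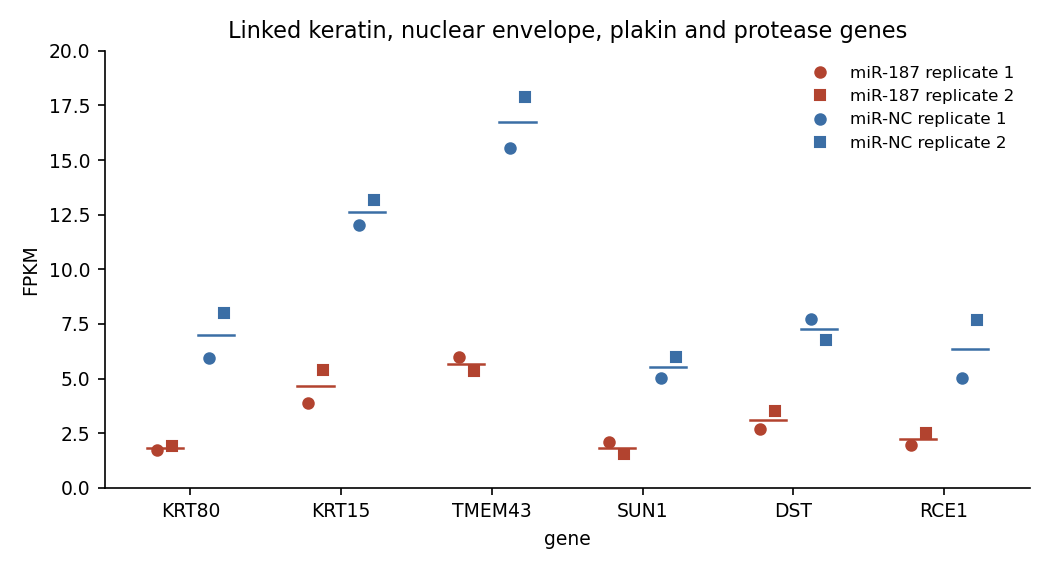
FPKM of 6 genes linked to the filament system, each called lower on the deposited scale, in miR-187 libraries (red, left of each pair) and miR-NC libraries (blue, right), with circles for replicate 1, squares for replicate 2 and a bar at the group mean. No group overlapped, which follows largely from drawing called genes, and 65.4% of all tested genes were lower in both miR-187 libraries. TMEM43 had the widest gap of the 6, with 6.0 and 5.33 FPKM with miR-187 against 15.6 and 17.9 FPKM with miR-NC.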

How the data were processed

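The mRNA of EA.hy926 cells was sequenced in 4 libraries, grouped by the sample titles as 2 miR-187 and 2 miR-NC. The authors deposited 1 FPKM value for each gene and library, and the submitters' processing notes name HISAT2, StringTie, DESeq2 and genome build hg19, with no versions. Because StringTie values are estimates and fragment totals were not used, depth is unknown, no counting interval is given, and the low values, as far as examined, gave no clear step of a single read. A value of 0 is described as listed at 0.

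Of 62492 rows, 49 copies from the pseudoautosomal region of the Y chromosome were left out, and 58611 of the remaining 62443 identifiers were matched to symbols by Ensembl identifier. PECAM1 was not matched and is not analysed here. The scale of analysis was log2(FPKM + 1), and genes that reached 1 FPKM or more in 2 or more libraries entered a limma fit (version 3.58.1, R 4.3.3, group as the only term, intensity trend, two-sided, Benjamini-Hochberg over 8196 genes, threshold 0.05, with 2 residual and 10.9 prior degrees of freedom). Median-of-ratios size factors were 0.862 and 0.835 for miR-187 and 1.08 and 1.31 for miR-NC. TPM, quantile and cyclic loess scaling, a pseudocount of 0.1, no filter, a filter of 5 FPKM, no trend, a replicate block and leaving out each library were tried. The fit was tested on simulated data. Ratios within libraries were compared with exact permutation tests.

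The members and gene lists were chosen with earlier results of these data known. Named were all 9 members, for each list the 4 tested genes or fewer of lowest adjusted p whose higher group averaged 5 FPKM or more, defining markers, the 3 genes nearest to VIM, and the 2 most abundant keratin pseudogenes, and others are said to have been named after their values were seen or are named by being listed at 0, or as tested genes of a list with no more than 5. Transcripts and coordinates are from GENCODE 29 on GRCh38, with no conversion from hg19. Transcripts were compared by stretches of 100 bases in either orientation. The mature miRNA is from RefSeq. Python 3.11.15, pandas 2.3.3, numpy 2.4.6 and matplotlib 3.10.9 were used.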

Additional observations from a re-analysis of the deposited data

How the results depend on the processing

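The count of filament genes lower with miR-187, 1 (VIM) on FPKM as deposited, was also 1 with TPM scaling, a pseudocount of 0.1 or a filter of 5 FPKM, and was 0 after median-of-ratios scaling, quantile normalization and cyclic loess normalization, without a filter and without the intensity trend. For VIM the adjusted p (limma) was 0.890, 0.0619, 0.0512, 0.164 and 0.0687 in these 5 settings, and its log2 fold change was -0.03, -0.37, -0.37, -0.52 and -0.52, so that only median-of-ratios scaling brought it near 0. Without a filter 0 of 25001 genes passed in either direction, with 4189 at an unadjusted p under 0.05. Leaving out each library kept the log2 fold change of VIM below 0, at -0.61 to -0.43. Each of these fits left 1 library in a group, which was assumed to vary like the other group. The count of higher filament genes was 0 in every setting run.

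The labels give both groups replicate numbers, but the deviations of same-numbered libraries did not move together (correlation -0.06), so the numbers were not read as pairs. With a replicate block 2 filament genes were lower, VIM and KRT7 (adjusted p 0.0191, limma). That fit had 1 residual degree of freedom and an infinite prior. Its p-values thus rest on a variance shared over genes and not on the spread of each gene.

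Signs that turned belonged to genes that did not pass the test on FPKM as deposited. The log2 fold change of KRT7 was 0.20 after median-of-ratios scaling and ranged over -0.67 to 0.094 when single libraries were left out. The log2 fold change of KRT18 was -0.082 after quantile and -0.0058 after cyclic loess normalization. That of LMNA was 0.32, 0.18 and 0.18 after median-of-ratios, quantile and cyclic loess scaling and ranged over -0.50 to 0.18 when single libraries were left out. Both KRT7 and LMNA were positive only without miR-187 replicate 1 among these fits. That of PLEC was 0.16, 0.21 and 0.21 in the same 3 scalings and was not tested with the filter of 5 FPKM. After median-of-ratios scaling the lower genes numbered 0 plakins and desmosome linkers (2 as deposited), 2 nuclear envelope partners (5), 0 prenyl processing genes (1) and 2 filament regulators (7). Of the 6 within-library ratios, VIM over the summed keratins ranged over -0.64 to -0.44 (log2) when single libraries were left out, and type II over type I keratins alone changed sign, to 0.02 without miR-187 replicate 1. The cause of these changes was not tested. KRT19 and LMNB1 were under 1 FPKM in libraries of unknown depth and were not tested with the filter, and KRT7 over KRT19 was not computed because KRT19 was listed at 0 in a miR-NC library.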

Other observations

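Among keratins outside the filament set, KRT81, a hair keratin, was listed at 0.923 and 0.786 FPKM in miR-187 libraries and at 6.32 and 0.785 FPKM in miR-NC libraries, so that miR-NC replicate 1 alone was high and the gene did not reach the expression filter in a second library. KRT10 had 0.903 and 2.81 FPKM with miR-187 and 1.10 and 1.07 FPKM with miR-NC, with miR-187 replicate 2 the high library. These genes were named after their values were seen.

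In miR-187 replicate 1 the values of KRT7, LMNA, LMNB1, KRT10, EMD and ZEB1, which were picked after their values were seen, were each the lowest of the 4 libraries. Among all 8196 tested genes 35.1% had their lowest value in that library and 47.2% in miR-187 replicate 2, where SUN1, TMEM43, NARF and BANF1 were lowest. EMD, which encodes the lamin-binding protein emerin, had 3.69 and 5.83 FPKM in miR-187 libraries and 5.01 and 5.96 FPKM in miR-NC libraries. Whether this has a technical source in that library was not tested.

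The leukocyte markers were near 0, PTPRC being listed at 0 in all 4 libraries, with the exception of the lysozyme gene LYZ. LYZ had 2.01 and 1.65 FPKM with miR-187 and 3.95 and 4.99 FPKM with miR-NC. Its log2 fold change was -0.95 (adjusted p 0.0140, limma), and -0.59 after median-of-ratios scaling (adjusted p 0.0750, limma). The muscle marker list held 1 tested gene, SMTN, at 6.80 and 6.73 FPKM with miR-187 and 6.94 and 9.61 FPKM with miR-NC (adjusted p 0.408 by limma). Both lists share their libraries with the filament genes, and their part in any filament result was not tested.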
